A study of Homo sapiens with 8 samples.

Results

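The SREBP activation machinery was described here as 9 genes of the 60230 in the deposited table, taken by symbol: the transcription factor genes SREBF1 and SREBF2, the escort gene SCAP, the retention genes INSIG1 and INSIG2, the protease genes MBTPS1 and MBTPS2, and ERLIN1 and ERLIN2. Their RNA was measured by sequencing in CYP2C19-overexpressing HepG2 cells, a human liver cancer line that carries an introduced gene for the drug-metabolizing cytochrome CYP2C19 and was kept under blasticidin to hold the selection. The groups were DMSO and compounds 4, 5 and 6, each with 2 libraries, and all of them shared the CYP2C19 overexpression. Control cells received 0.2% DMSO, treated cells received each compound at its own IC50, a concentration that the study derived from a cell viability assay, and all were harvested after 24 h. The labels mark the libraries of each group as day 1 and day 2, and these are called replicate 1 and replicate 2. The labels give the day as a time, and if it were a time of exposure, contrary to the 24 h in the study's methods, each group would pool both times. Nothing in the labels says that they came from separate cultures, so the p-values measure only the spread between these libraries, which may be technical.

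All the compounds are plastic-related bisphenol-type molecules. Compounds 4 and 6 share a methylene bridge and a methyl group on each ring, and they differ in the bulky group beside the hydroxyl, which is tert-butyl in compound 4 and cyclohexyl in compound 6. In compound 5 the bridge carries a methyl group, and a further tert-butyl group on each ring takes the place of the ring methyl. Each concentration was set by the compound's own cytotoxicity, so the molar doses were not identical, but the study described these IC50 values as rather comparable. The viability assay ran for longer than the 24 h before harvest, and toxicity at harvest was not measured in these data.

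SREBPs are transcription factors made as membrane proteins of the endoplasmic reticulum (ER), where SCAP binds them and senses cholesterol. When sterols are low, SCAP carries the precursor in COPII vesicles to the Golgi, where the site-1 protease (MBTPS1) and the site-2 protease (MBTPS2) cut it and release the part that enters the nucleus. When sterols are high, the INSIG proteins hold the SCAP complex in the ER, and the ERLIN proteins, which bind cholesterol in ER membranes, are known as further restraints on this export and as partners in protein degradation at the ER. In liver, SREBP2 (from SREBF2) mainly drives genes of cholesterol synthesis and uptake, SREBP1 (from SREBF1) mainly those of fatty acid synthesis, and SREBF2 and INSIG1 are known SREBP targets themselves. Cleavage of the proteins was not measured in these data.

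The promoter windows of SREBF2, INSIG1 and SCAP are shown because they were those of the machinery that held any of the motifs searched, and SREBF2 is the factor gene that responded in the results that follow. They come from RefSeq on GRCh38.p14 and run 250 bases before to 50 bases after the annotated start, 5′ to 3′ on the strand of the gene. Capitals mark the motifs, which were searched on both strands: a sterol element (TCACNCCAC), the NF-Y box (CCAAT, or ATTGG on the other strand) and an E-box (CACGTG). The windows lie at chr22:41832855-41833154 (plus strand), chr7:155297628-155297927 (plus strand) and chr3:47475892-47476191 (minus strand).
SREBF2: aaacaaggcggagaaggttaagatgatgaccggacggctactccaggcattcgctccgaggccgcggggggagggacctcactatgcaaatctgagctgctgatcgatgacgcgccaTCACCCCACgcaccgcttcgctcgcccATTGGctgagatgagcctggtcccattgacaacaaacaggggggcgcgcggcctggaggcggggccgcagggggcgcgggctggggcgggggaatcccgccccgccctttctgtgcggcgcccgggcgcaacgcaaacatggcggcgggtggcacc
INSIG1: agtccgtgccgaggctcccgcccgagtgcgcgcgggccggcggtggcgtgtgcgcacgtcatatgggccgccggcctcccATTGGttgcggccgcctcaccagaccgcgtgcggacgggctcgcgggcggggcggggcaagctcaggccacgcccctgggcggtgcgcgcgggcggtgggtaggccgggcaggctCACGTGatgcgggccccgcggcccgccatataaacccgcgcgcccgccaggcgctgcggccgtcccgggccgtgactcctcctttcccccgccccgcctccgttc
SCAP: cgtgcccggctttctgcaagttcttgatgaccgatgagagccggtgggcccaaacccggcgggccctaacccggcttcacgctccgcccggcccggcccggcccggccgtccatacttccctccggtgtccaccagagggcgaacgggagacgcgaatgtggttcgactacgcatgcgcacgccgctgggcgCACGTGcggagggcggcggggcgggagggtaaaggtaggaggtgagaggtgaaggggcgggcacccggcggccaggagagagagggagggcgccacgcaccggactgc

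Of the 9 members, 7 had a window, and ERLIN1 and ERLIN2 had none. The SREBF2 window held the sterol element at -133 to -125 and an NF-Y box at -106 to -102, counted from the start base as 0. The sterol element occurred in 1.13% of the 35116 windows of all genes, the NF-Y box in 34.6% and the E-box in 7.26%. The INSIG1 window held an NF-Y box at -170 to -166 and an E-box at -55 to -50, and the SCAP window held an E-box at -58 to -53. The letters searched were not in the windows of SREBF1, INSIG2, MBTPS1 or MBTPS2. Of the 17 genes of cholesterol synthesis and uptake with a window, 0 held this sterol element and 15 held the NF-Y box, and of the 10 fatty acid genes with a window the counts were 0 and 6. These matches describe letters and not binding.

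The libraries held 9791659 to 17814595 estimated counts, and 13400 genes passed the filter on low counts. The counts of CYP2C19 do not tell the introduced copy from the cells' own gene. CYP2C19 was at 27.7 and 16.4 CPM (counts scaled to the size of the library) under DMSO and 31.4 and 44.3 under compound 4. It was at 52.8 and 38 under compound 5, and 23.9 and 21.2 under compound 6. It was 1.05 ± 0.26 (log2-fold change ± SE) higher than DMSO under compound 5 (adjusted p = 0.040). Under compound 4 it was 0.79 ± 0.26 higher and did not pass (adjusted p = 0.086), but DESeq2 called it there (adjusted p = 0.027). Under compound 6 it was 0.04 ± 0.27 higher (adjusted p = 0.95). Here and throughout, adjusted p-values come from the quasi-likelihood test of edgeR after Benjamini-Hochberg correction over all genes tested, and a gene passed when its value was under 0.05. All 9 liver markers were detected, with a summed level of 50670 to 54660 CPM under DMSO and 35000 to 44740 CPM in treated libraries. Under compound 4, 4 of the 9 passed as lower, against 3.91% of all genes tested, and 7 of the 9 had a negative difference. Under compound 5, 1 of the 9 passed, FGB, which was 0.53 higher (adjusted p = 0.030). The other 8 had negative differences there, and DESeq2 called 2 of the 9 lower. Under compound 6 none passed, although 8 of the 9 had a negative difference. Of these markers 5 had an unadjusted p under 0.05 under compound 6, and DESeq2 called 4 lower. Of 6 markers of other cell types, PTPRC, COL1A2 and LUM were listed at 0 in every library and only CD68 passed the filter. The summed level of these 6 was 20.3 to 25.2 CPM under DMSO, 39.2 to 39.7 under compound 4, 20.3 to 26.4 under compound 5 and 29.7 to 31.1 under compound 6, almost all of it CD68, which was 0.80 higher under compound 4 (adjusted p = 0.016). The part of these markers and of CYP2C19 in the results was not tested. In bulk samples of a single cell line, a change in all cells and a change in some of the cells cannot be told apart.

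Of the machinery, 8 of 9 genes passed the filter. SREBF2 fell under compounds 4 and 5, ERLIN1, ERLIN2 and MBTPS2 fell under compound 5, and no member passed as higher in this fit under any compound (MBTPS1 did under compound 5 with the replicate block, as given below). With compound 4, 1 of the 8 passed the test, against 9.51% of all genes tested (5.6% higher and 3.91% lower). With compound 5, 4 of the 8 passed, all lower, against 8.3% of all genes (5.35% higher and 2.95% lower). With compound 6, 0 of the 8 passed, against 0.575% of all genes (0.493% higher and 0.0821% lower); 1 had an unadjusted p under 0.05, and DESeq2 also called 0. The median log2-fold change of the 8 was -0.11, -0.37 and -0.09 under compounds 4, 5 and 6, beside 0.01, 0.0037 and 0.02 over all genes. The comparisons share the DMSO libraries, so they are not independent of each other.

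**Figure D1:**
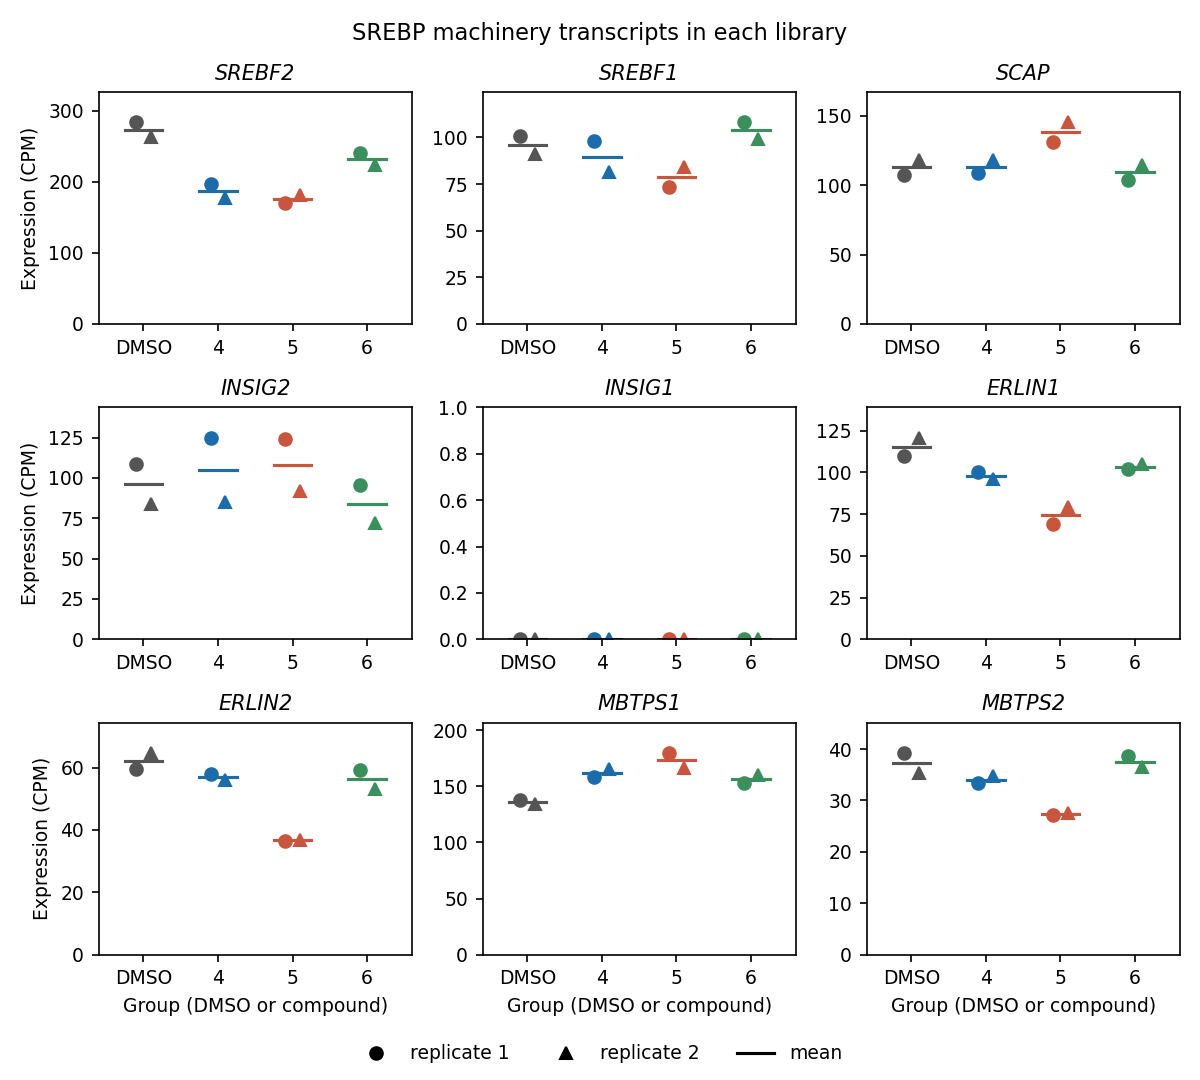
Expression of the 9 members in CPM (vertical axes, from 0) in each library of the DMSO, compound 4, compound 5 and compound 6 groups, with circles for replicate 1, triangles for replicate 2 and a line for the mean. SREBF2 sits at 263 to 284 CPM under DMSO and at 170 to 197 CPM under compounds 4 and 5, ERLIN2 is lowest under compound 5 at 36.6 and 36.9 CPM, and INSIG1 is listed at 0 in every library.

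SREBF2 (ENSG00000198911, chr22:41833079-41907308, GRCh38, plus strand) encodes the factor that mainly drives cholesterol synthesis. Its level was 284 and 263 CPM under DMSO, 197 and 177 under compound 4, 170 and 181 under compound 5, and 240 and 223 under compound 6. Every treated library was below both DMSO libraries, and those of compounds 4 and 5 were also below those of compound 6. SREBF2 fell by 0.55 on the log2 scale (SE 0.11, n = 2 against 2, 95% interval -0.78 to -0.31, adjusted p = 0.015) under compound 4, which is 0.683 times the DMSO level. It fell by 0.64 (SE 0.11, interval -0.88 to -0.40, adjusted p = 0.011) under compound 5, or 0.642 times. Under compound 6 the difference was -0.24 (interval -0.47 to -0.0042, adjusted p = 0.26) and did not pass.

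These calls rest on few libraries. The compound 4 call was lost without DMSO replicate 1 (-0.50, adjusted p = 0.09), without DMSO replicate 2 (-0.60, adjusted p = 0.10) and without compound 4 replicate 2 (-0.47, adjusted p = 0.11). The compound 5 call was lost without DMSO replicate 1 (-0.60, adjusted p = 0.089), without DMSO replicate 2 (-0.69, adjusted p = 0.084) and without compound 5 replicate 1 (-0.60, adjusted p = 0.077). The sign of the difference held in every one of these fits. An antisense gene, SREBF2-AS1, overlaps SREBF2 on the other strand, the library kit kept strand, and the strand setting of the counting is not given in the sources used here. SREBF1 and ERLIN2 are also overlapped on the other strand, by RAI1 and ENSG00000183154.

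SREBF1 (ENSG00000072310, chr17:17810399-17837002, minus strand) encodes the factor that mainly drives fatty acid synthesis. It was at 101 and 91.2 CPM under DMSO, 98.2 and 81.2 under compound 4, 73.4 and 84.0 under compound 5, and 108 and 99.3 under compound 6. The compound 5 libraries were below both DMSO libraries, whereas those of the other compounds overlapped DMSO. The differences from DMSO were -0.10, -0.28 and 0.11 for compounds 4, 5 and 6 (adjusted p = 0.67, 0.18 and 0.68), and none passed. The compound 5 interval ran from -0.57 to 0.0047.

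Because both factor genes were counted in the same library, their ratio does not depend on scaling between libraries. There were 0.355 and 0.346 SREBF1 counts per SREBF2 count under DMSO and 0.433 to 0.499 in the 6 treated libraries. The treated and DMSO ranges did not overlap, also under compound 6, where neither gene passed on its own. A ratio within a library shows unequal change and not which gene moved.

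**Figure D2:**
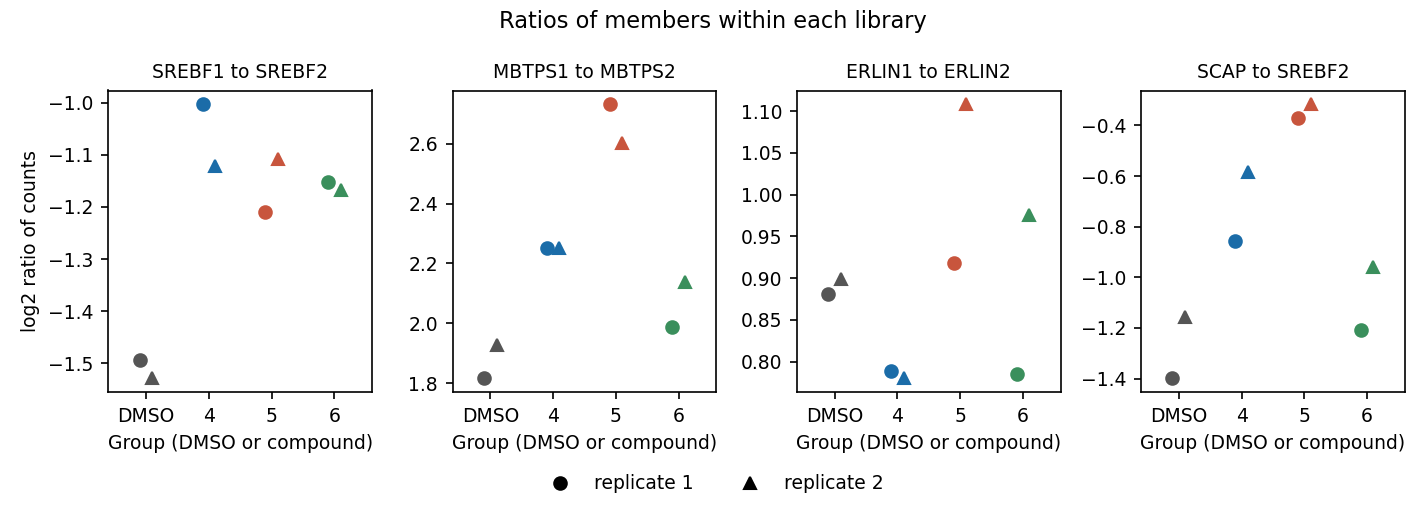
log2 ratio of the estimated counts of pairs of members within each library (vertical axes, which do not start at 0) by group, with circles for replicate 1 and triangles for replicate 2. The SREBF1 to SREBF2 ratio is above DMSO in all 6 treated libraries, and the SCAP to SREBF2 and MBTPS1 to MBTPS2 ratios are highest under compound 5.

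SCAP (ENSG00000114650, chr3:47413694-47477126, minus strand), the escort and cholesterol sensor, was at 108 and 118 CPM under DMSO, 109 and 118 under compound 4, 131 and 145 under compound 5, and 104 and 115 under compound 6. The compound 5 libraries lay above all 6 others. The difference under compound 5 was 0.29 (interval 0.05 to 0.54, adjusted p = 0.12), and those under compounds 4 and 6 were 0.01 and -0.05 (adjusted p = 0.98 and 0.86). There were 0.379 and 0.449 SCAP counts per SREBF2 count under DMSO and 0.773 and 0.803 under compound 5, with 0.552 and 0.667 under compound 4 and 0.433 and 0.514 under compound 6. The escort transcript was thus more abundant relative to the SREBF2 transcript in every library of compounds 4 and 5 than in either DMSO library, while the compound 6 values overlapped DMSO across replicates and were above it within each replicate number.

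INSIG2 (ENSG00000125629, chr2:118088452-118110997, plus strand), one of the ER retention proteins, was at 109 and 83.9 CPM under DMSO, 125 and 85.0 under compound 4, 124 and 92.0 under compound 5, and 95.4 and 72.0 under compound 6. Replicate 1 was above replicate 2 in all 4 groups, and all the groups overlapped. The differences were 0.12, 0.17 and -0.20 (adjusted p = 0.76, 0.65 and 0.67), with intervals as wide as -0.33 to 0.67 under compound 5. Their SE of 0.22 to 0.23 was the largest among the 8 members tested.

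INSIG1 (ENSG00000186480, chr7:155297776-155310235, plus strand), the sterol-responsive retention protein, was listed at 0 in all 8 libraries. With 3 counts as the upper limit that a count of 0 allows, this is a level of up to 0.171 to 0.308 CPM depending on the library, for counting error only. It did not enter the test and gets no fold change. Of 19828 protein-coding genes with a position, 4756 (24.0%) were also listed at 0 throughout, and the cholesterol and lipid genes ME1 and ABCG1 of the lists below were among them. Of 29 other genes within 500 kb, 11 had a count in any library, and of the 7 protein-coding ones these were 4, with 267 to 522 counts per library for PAXIP1, 602 to 1225 for RBM33, 54 to 128 for SHH and 0 to 1 for DPP6. A value listed at 0 in such a table can be a failed estimate, so it is not read here as absence of INSIG1 RNA.

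ERLIN1 (ENSG00000107566, chr10:100150094-100188334, minus strand) and ERLIN2 (ENSG00000147475, chr8:37736601-37759101, plus strand) encode the paired ER membrane proteins that bind cholesterol. ERLIN1 was at 110 and 121 CPM under DMSO, 100.2 and 96.0 under compound 4, 69.1 and 79.5 under compound 5, and 102 and 105 under compound 6. ERLIN2 was at 59.4 and 64.7 CPM under DMSO, 58.0 and 55.9 under compound 4, 36.6 and 36.9 under compound 5, and 59.2 and 53.3 under compound 6. For both genes the compound 5 libraries were the lowest of all 8. ERLIN1 fell by 0.63 (SE 0.11, interval -0.88 to -0.38, adjusted p = 0.013) and ERLIN2 fell by 0.76 (SE 0.11, interval -1.01 to -0.51, adjusted p = 0.0077) under compound 5, or to 0.646 and 0.591 times DMSO. Under compound 4 the differences were -0.23 and -0.13 (adjusted p = 0.21 and 0.51), and under compound 6 they were -0.16 and -0.14 (adjusted p = 0.48 and 0.52).

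ERLIN2 showed the largest change of the members under compound 5. Its call was lost without DMSO replicate 1 (-0.83, adjusted p = 0.054) and without DMSO replicate 2 (-0.69, adjusted p = 0.092). The ERLIN1 call was lost without either DMSO replicate (-0.71, adjusted p = 0.068, and -0.55, adjusted p = 0.13) and without compound 5 replicate 1 (-0.54, adjusted p = 0.088). The pair kept a similar ratio, with 1.72 to 2.16 ERLIN1 counts per ERLIN2 count over all libraries. Reads that ERLIN1 shares with its same-strand neighbour CHUK could be split between them by the counting.

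The protease transcripts differed from DMSO in opposite directions under compound 5, where only MBTPS2 passed. MBTPS1 (ENSG00000140943, chr16:84053761-84116906, minus strand), the site-1 protease, was at 138 and 135 CPM under DMSO, 159 and 165 under compound 4, 180 and 167 under compound 5, and 153 and 161 under compound 6. MBTPS2 (ENSG00000012174, chrX:21839636-21885424, plus strand), the site-2 protease, was at 39.3 and 35.3 CPM under DMSO, 33.3 and 34.7 under compound 4, 27.1 and 27.5 under compound 5, and 38.6 and 36.5 under compound 6. MBTPS1 was above DMSO in all 6 treated libraries, whereas MBTPS2 was clearly below it in the compound 5 libraries, slightly below it in those of compound 4 and overlapping it in those of compound 6.

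For MBTPS1 the differences were 0.25, 0.35 and 0.20 under compounds 4, 5 and 6 (adjusted p = 0.14, 0.058 and 0.31), and none passed. With the replicate number as a block, the compound 5 difference was 0.34 and passed (adjusted p = 0.046), and it also passed without compound 5 replicate 2 (0.40, adjusted p = 0.049). MBTPS2 fell by 0.45 (SE 0.12, interval -0.71 to -0.19, adjusted p = 0.047) under compound 5. DESeq2 did not call it (adjusted p = 0.062), nor did the fits with no filter on low counts or with only the 4 libraries compared. The call was also lost whichever library was left out, with values of -0.52 to -0.38. Reads that MBTPS2 shares with its same-strand neighbour YY2 could be split between them by the counting. The same holds for MBTPS1 and its same-strand neighbour ENSG00000274677. There were 3.52 and 3.81 MBTPS1 counts per MBTPS2 count under DMSO, 4.76 and 4.76 under compound 4, 6.64 and 6.07 under compound 5, and 3.97 and 4.40 under compound 6, so no treated library fell within the DMSO range.

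**Figure D3:**
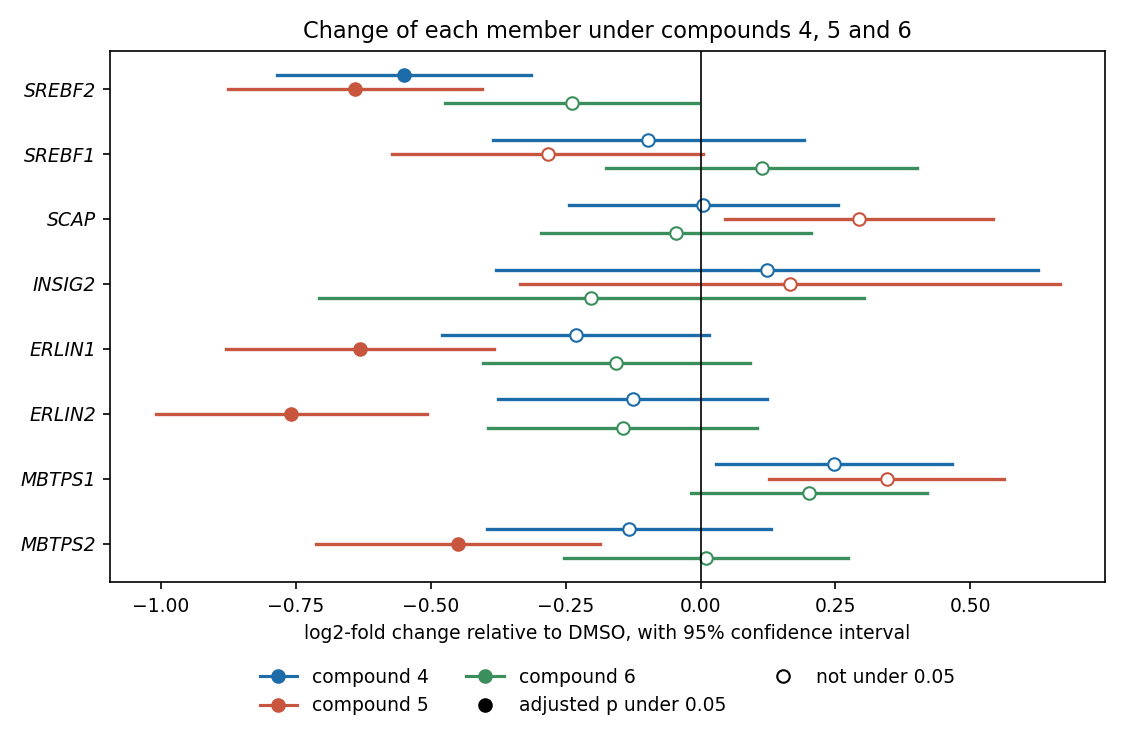
log2-fold change of the 8 members tested relative to DMSO (horizontal axis) with 95% confidence intervals, for compounds 4, 5 and 6, with filled points where the adjusted p is under 0.05. Filled points stand at SREBF2 under compounds 4 and 5 (-0.55 and -0.64) and at ERLIN1, ERLIN2 and MBTPS2 under compound 5 (-0.63, -0.76 and -0.45).

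Averaged over the 3 compounds, SREBF2 was 0.48 lower than DMSO (SE 0.08, interval -0.66 to -0.29, adjusted p = 0.011), ERLIN1 was 0.34 lower (adjusted p = 0.039) and ERLIN2 was 0.34 lower (adjusted p = 0.040). So 3 of the 8 passed in this comparison, all lower, against 10.9% of all genes tested in either direction. Of the 13400 genes, 848 passed as higher and 613 as lower. MBTPS1 was 0.26 higher but did not pass (adjusted p = 0.065). The SREBF2 value was lost without DMSO replicate 1 (-0.43, adjusted p = 0.11) and without DMSO replicate 2 (-0.53, adjusted p = 0.15). The ERLIN1 and ERLIN2 calls were lost in 6 of the 8 fits that left out 1 library (adjusted p = 0.051 to 0.37) and remained only without compound 4 replicate 1 or compound 5 replicate 2.

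Different genes were compared by CPM per kilobase of exon. The length covers all annotated exons of a gene and not only the transcripts present, so this comparison is rough. SREBF2 was the highest member under DMSO at 36.2 ± 1.9 CPM per kb (SD, n = 2). INSIG2 (24.4 ± 4.5), ERLIN1 (19.9 ± 1.4), SCAP (17.5 ± 1.2), MBTPS1 (13.3 ± 0.25), SREBF1 (11.9 ± 0.83), ERLIN2 (6.59 ± 0.40) and MBTPS2 (4.18 ± 0.31) followed. INSIG2 and ERLIN1, and ERLIN1 and SCAP, had SD ranges that overlapped, and the other neighbours in this order did not. The site-1 protease transcript was thus well above that of the site-2 protease, and that of SREBF2 well above that of SREBF1.

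The compounds were also set against each other directly, in 3 pairs, each adjusted over all genes. Between compounds 4 and 6, which differ in the tert-butyl or cyclohexyl group, 0 of the 8 members passed, against 0% of all genes tested (1 member had an unadjusted p under 0.05, and DESeq2 called 0). For SREBF2 the compound 4 libraries were below those of compound 6, with a difference of -0.31 (interval -0.55 to -0.08, adjusted p = 0.55). For the other members the intervals ran from -0.50 to 0.83 at the widest. These intervals do not show that the compounds act alike.

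Between compounds 4 and 5, 0 of the 8 passed, against 0.313% of all genes (4 members had an unadjusted p under 0.05, and DESeq2 called 1). ERLIN2 was 0.63 higher under compound 4 (interval 0.38 to 0.88, adjusted p = 0.059), and this passed with the replicate block (adjusted p = 0.042) and with DESeq2 (adjusted p = 0.0077). SREBF2 differed by 0.09 (interval -0.14 to 0.33, adjusted p = 0.70). Between compounds 6 and 5, 1 of the 8 passed, against 1.03% of all genes (6 members had an unadjusted p under 0.05, and DESeq2 called 2). That member was ERLIN2, which was 0.61 higher under compound 6 (SE 0.11, interval 0.36 to 0.87, adjusted p = 0.040), a call that was lost whichever library was left out (adjusted p = 0.058 to 0.35) and with only the 4 libraries compared (adjusted p = 0.11). ERLIN1 and SREBF2 were 0.47 and 0.40 higher under compound 6 than under compound 5 (adjusted p = 0.074 and 0.094) and did not pass.

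The genes that SREBPs are known to drive differed more from DMSO than the machinery. Of 24 genes of cholesterol synthesis and uptake, 22 fell under compound 4, 22 under compound 5 and 6 under compound 6, and 0 rose, with medians of -1.53, -1.51 and -0.88. Over all genes tested, 3.91%, 2.95% and 0.0821% fell under compounds 4, 5 and 6. The sterol demethylation enzyme MSMO1 was at 138 and 128 CPM under DMSO, 36.7 and 23.0 under compound 4, 17.0 and 26.1 under compound 5, and 65.4 and 57.4 under compound 6, without overlap between DMSO and any compound. It fell by 2.61 (adjusted p = 0.0016) under compound 5.

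Within this list PMVK, a kinase of the mevalonate pathway, did not pass under any compound and differed from DMSO by 0.09, -0.53 and 0.02 under compounds 4, 5 and 6 (adjusted p = 0.83, 0.16 and 0.98). The compound 6 count depended on the processing, with 20 genes lower in DESeq2, 5 with the replicate block, 1 without DMSO replicate 1, 0 without DMSO replicate 2 and 21 without compound 5 replicate 1. The counts for compounds 4 and 5 dropped to 14 and 13 without DMSO replicate 2. This list was chosen with earlier results of these data known, so its direction is a description. It contrasts in size with SREBF2, whose change was -0.55, -0.64 and -0.24.

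Of the 12 genes of fatty acid and triglyceride synthesis, 11 were tested, and 9 fell under compound 4, 9 under compound 5 and 0 under compound 6 (8 with an unadjusted p under 0.05, 5 lower in DESeq2). Their medians were -1.22, -0.98 and -0.45, beside the values of -0.10, -0.28 and 0.11 for SREBF1. The shares of all genes tested that fell were 3.91%, 2.95% and 0.0821% under compounds 4, 5 and 6. The desaturase FADS2 fell by 2.23 (adjusted p = 0.0094) under compound 4, and the lipid droplet gene PNPLA3 fell by 1.95 (adjusted p = 0.0056) under compound 5. Without DMSO replicate 2 the counts for compounds 4 and 5 were 4 and 3, and without DMSO replicate 1 the count for compound 5 was 5.

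The genes that carry the SCAP complex out of the ER rose in part under compound 5. Of 12 COPII transport genes, 5 rose under compound 5 and 0 fell, with a median of 0.37, and under compounds 4 and 6 none passed (medians 0.14 and 0.09, with 1 and 0 at an unadjusted p under 0.05 and 0 in DESeq2). Over all genes tested, 5.35% rose and 2.95% fell under compound 5. The cargo adaptors SEC24D and SEC24A rose by 0.88 (adjusted p = 0.0065) and 0.73 (adjusted p = 0.034), SEC23B of the inner coat by 0.57 (adjusted p = 0.034), the exit site scaffold SEC16A by 0.51 (adjusted p = 0.032) and the exchange factor PREB by 0.39 (adjusted p = 0.05, just inside the threshold). SEC24D was at 92.2 and 88.9 CPM under DMSO and 182 and 151 under compound 5. The count of 5 dropped to 0 without either DMSO replicate, to 1 without compound 5 replicate 1, and to 2 and 3 without compound 6 replicate 1 and replicate 2.

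Of 14 genes of sterol-regulated ER degradation, the pathway in which the ERLIN and INSIG proteins act, 2 rose under compound 5 and 0 fell. Over all genes tested, 5.35% rose and 2.95% fell under that compound. The ubiquitin ligase SYVN1 rose by 0.64 (adjusted p = 0.023) and the lipid droplet and ligase adaptor AUP1 by 0.60 (adjusted p = 0.013). The list median was 0.23 under compound 5, opposite in sign to ERLIN1 and ERLIN2, and 0.13 and -0.02 under compounds 4 and 6, where none passed (3 and 0 at an unadjusted p under 0.05, 0 in DESeq2). With the replicate block 4 genes passed as higher under compound 5 and 1 under compound 4, NPLOC4 (adjusted p = 0.045), and without either DMSO replicate or compound 5 replicate 1 none passed.

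The proteases also cut other membrane-bound proteins. Of 8 such substrates 7 were tested, and 2 fell under compound 5, against 2.95% of all genes tested. CREB3L4, a membrane-bound transcription factor, fell by 1.18 (adjusted p = 0.015), and GNPTAB, a Golgi enzyme that site-1 protease activates, fell by 0.46 (adjusted p = 0.049). Their count was 0 without either DMSO replicate or compound 5 replicate 1, and 1 without any single library of compounds 4 or 6. The list median was 0.25, 0.02 and -0.11 under compounds 4, 5 and 6, and none passed under compounds 4 and 6 (3 and 2 at an unadjusted p under 0.05, 0 in DESeq2). With the replicate block 1 passed under compound 4, CREB3L3 (0.42 in the fit without it, adjusted p = 0.037 with it).

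Among 12 partners, import and turnover factors of the SREBPs, 0 passed under compounds 4, 5 and 6 (2, 2 and 0 at an unadjusted p under 0.05, with 1 in DESeq2 under compound 5), with medians of 0.02, 0.17 and 0.07. Of 10 LXR receptors and targets, which respond to oxysterols and of which SREBF1 is also one, 9 were tested. The cholesterol exporter ABCA1 fell by 0.98 (adjusted p = 0.0056) under compound 4 and 0.73 (adjusted p = 0.017) under compound 5, the ubiquitin ligase gene MYLIP fell by 0.82 (adjusted p = 0.046) under compound 5, and SMPDL3A rose by 0.83 (adjusted p = 0.033) under compound 4. None passed under compound 6 (4 at an unadjusted p under 0.05, 1 in DESeq2), and SMPDL3A passed there with the replicate block (adjusted p = 0.045). DESeq2 did not call MYLIP under compound 5 (adjusted p = 0.12), and MYLIP was at 5.23 and 5.69 CPM under DMSO, 2.96 and 3.19 under compound 5 and 9.32 and 9.10 under compound 6, where the difference of 0.75 did not pass (adjusted p = 0.11). The list medians were 0.06, -0.30 and 0.12. Over all genes tested, 9.51%, 8.3% and 0.575% passed in either direction under compounds 4, 5 and 6. SMPDL3A was not called without any single library of DMSO or compound 4, ABCA1 under compound 4 was lost without DMSO replicate 2, and the compound 5 count of 2 was 0 without either DMSO replicate and 1 without any other library.

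The genes whose log2 CPM followed SREBF2 most closely over the 8 libraries were P2RY8 (Pearson r = 0.994), SCD (0.993) and MSMO1 (0.992), of which SCD and MSMO1 are in the lists above. For SREBF1 they were DET1 (0.983), ACAD10 (0.982) and TMEM131L (0.972). These values describe libraries that share groups and differ in depth, and they were picked as the highest of 13400 genes.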

How the data were processed

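RNA was sequenced from 8 libraries of CYP2C19-overexpressing HepG2 cells. The authors quantified reads with Salmon 1.5.0 on a GENCODE 38 transcript index after FastQC 0.12.0, summed them to genes with tximeta and tested them with DESeq2 1.38.3, per the study's methods and the submitters' processing notes. The deposited table holds estimated counts per gene, stored as whole numbers, with no normalization. The 8 libraries held 9791659 to 17814595 counts. Here edgeR 4.0.16 in R 4.3.3 was used with TMM scaling, filterByExpr at a minimum count of 10, and glmQLFit and glmQLFTest on all 8 libraries in 1 fit, with Benjamini-Hochberg adjustment over 13400 genes and a threshold of 0.05. This step was tested on simulated data. The common coefficient of variation between replicates was 0.122. CPM values use the TMM library sizes. Intervals cover 95%, and the limits set by a count of 0 cover counting error only.

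The members and the pathway lists were chosen with earlier results of these data known. Beside all 9 members, named genes were, from each list and compound, the called genes with the largest increase and decrease, all called genes of lists with few calls, and for SREBF1 and SREBF2 the 3 most alike by Pearson r; PMVK, FGB, CREB3L3, NPLOC4, SREBF2-AS1 and other neighbours were named outside that rule, after their values were seen. Some genes that the rule would name are not reported here. Gene positions are from the GENCODE 29 annotation on GRCh38, which matched 57972 of 60230 genes, and promoters are from RefSeq GRCh38.p14. The day in the labels gives the pairing of replicate numbers. As a check, the deviations of same-numbered libraries correlated from -0.149 to 0.236 over the pairs of groups. The fit reported had no block, since the study's methods do not name one. Alternatives were DESeq2 1.42.0, its size factors, other filters on low counts, the replicate block, fits of only the libraries compared and leaving out each library. The labels mark replicate 1 of DMSO and of compound 4 as merged, with no further detail.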

Additional observations from a re-analysis of the deposited data

How the results depend on the processing

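With 2 libraries per group, the calls depended on single libraries, each of which was left out in turn. Genes called then ranged from 43 to 1681 for compound 4, 46 to 1814 for compound 5, 2 to 432 for compound 6 and 28 to 2282 for their mean against DMSO, and from 0 to 13 between compounds 4 and 6, 9 to 25 between 4 and 5, and 0 to 105 between 6 and 5. Members called ranged from 0 to 1, 0 to 4 and 0 to 4 for compound 4, compound 5 and the mean, and were 0 between 6 and 5 in each such fit. With no filter on low counts, 2383, 2431, 1355 and 2572 genes were called for compounds 4, 5, 6 and the mean, and 259, 750 and 990 for the pairs 4 and 6, 4 and 5, and 6 and 5. For compound 6, beside 77 genes called, DESeq2 called 547, its size factors 47, 10 counts in every sample 198, and the 4 libraries alone 1023. For the pair 4 and 6 DESeq2, 10 counts in every sample and the replicate block called 59, 5 and 1, for 4 and 5 they called 210, 65 and 128 (10 with the 4 libraries alone), and for 6 and 5 DESeq2, the block and the 4 libraries called 379, 269 and 49. Members called between 4 and 5 were 1 with DESeq2, no filter, 10 counts in every sample and the replicate block, and between 6 and 5 they were 2 with DESeq2 or no filter and 0 with the 4 libraries. The cause of these shifts was not tested. The replicate block passed MBTPS1 under compound 5 and ERLIN2 between compounds 4 and 5 and changed no other call of a member.

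Of 776 member values under the alternatives, 691 kept their sign and their side of the threshold, 45 lost the call, 9 gained it and 31 changed sign, none of which passed the test. SCAP under compound 4 was -0.0062, -0.0033, -0.0027 and -0.0012 with DESeq2, its size factors, no filter and the 4 libraries, and MBTPS2 under compound 6 was -0.0038, -0.0031, -0.0036 and -0.0083 there. Leaving out 1 library gave ranges of -0.0657 to 0.0765 for SCAP, -0.19 to 0.38 for INSIG2 and -0.25 to 0.0355 for SREBF1 under compound 4, -0.0757 to 0.37 for INSIG2 under compound 5, -0.0627 to 0.0740 for MBTPS2 and -0.12 to 0.0274 for SCAP under compound 6, and -0.15 to 0.22 for INSIG2 in the mean. Between compounds 4 and 6 they were -0.0570 to 0.11 for ERLIN2 and -0.0119 to 0.12 for SCAP, and between 4 and 5 they were -0.35 to 0.21 for INSIG2.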
